A study of Homo sapiens with 8 samples.

Results

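The semaphorins, plexins and neuropilins, a family of axon guidance ligands and their receptors, were examined in human SHSY5Y neuroblastoma cells before and after neuronal differentiation. Members were defined by gene symbol, and 30 of the 18377 genes analysed qualified: 19 semaphorins, 9 plexins and 2 neuropilins. The family was chosen with earlier results of these data known, so its share of called genes is not an independent test. RNA was measured on 8 whole-transcript microarrays, 2 for each of 4 groups. SHSY5Y is an established line of sympathetic lineage that grows neurites and leaves the cell cycle upon treatment with retinoic acid.

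The 4 groups crossed a pair of stable lines, V71 and PLKO, with a pair of growth conditions. Both lines were made by viral transduction and puromycin selection, and whether either is a single clone is not given in the sources used here. NDF cells were kept on laminin in growth medium with 10% serum. DF cells, also on laminin, received retinoic acid at 10 µM over 5 days, after which serum was withdrawn and BDNF was added at 2 nM over 3 days. The sample annotation attaches shRNA to the PLKO line and control to the V71 line, while the methods give pLKO.1 as the empty control vector. The direction from control to knockdown is therefore not settled by the labels, and the lines are called by their names, with every line difference given as V71 minus PLKO. No value of the shRNA's target gene is used here, which leaves the labels without that check.

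Values are log2 RMA signals, in which 1 unit is a 2-fold difference. Each line or growth difference comes from 1 limma fit over all 8 arrays, with its standard error (SE). A gene was called where limma gave a Benjamini-Hochberg adjusted p under 0.05 over all probe sets and the fold was at least 1.5. Arrays of a group correlated at a Spearman rho of 0.9947 or more, and arrays of different groups at 0.9931 or less. With 2 arrays a group, described as biological duplicates, the p-values measure only the spread between these arrays. The 10 noradrenergic neuroblast markers analysed lay above the lower quartile of all probe sets on every array, with a mean of 8.08 to 8.47. Upon differentiation 5 of 9 retinoic acid response genes rose in each line, beside 2.88% of all genes in PLKO and 3.98% in V71 cells.

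Semaphorins are secreted or membrane-bound ligands that steer growing axons and migrating cells, mostly by repulsion. Plexins are their transmembrane receptors and carry a GTPase-activating domain that acts on small GTPases of the Ras family. Most class 3 semaphorins, which are secreted, need a neuropilin as the binding subunit of a complex with an A plexin, whereas membrane-bound semaphorins usually bind plexins directly. In the sympathetic nervous system this family positions neural crest cells and shapes the trajectories of their axons.

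The promoter windows of SEMA3C and SEMA5A are shown because these ligands were lower in V71 than in PLKO cells before differentiation and fell upon differentiation in PLKO cells. The windows come from RefSeq on GRCh38.p14 and run from 250 bases before to 50 bases after an annotated start, on the minus strand and written 5′ to 3′. SEMA3C has annotated windows at chr7:80922340-80922639 (start 1) and chr7:80919002-80919301 (start 2), and SEMA5A at chr5:9546026-9546325. Capitals mark the letters AGGTCA, the core element bound by retinoic acid receptors, or GGGCGG, the GC box, each searched on both strands, so that the complement strand appears as TGACCT or CCGCCC.
SEMA3C start 1: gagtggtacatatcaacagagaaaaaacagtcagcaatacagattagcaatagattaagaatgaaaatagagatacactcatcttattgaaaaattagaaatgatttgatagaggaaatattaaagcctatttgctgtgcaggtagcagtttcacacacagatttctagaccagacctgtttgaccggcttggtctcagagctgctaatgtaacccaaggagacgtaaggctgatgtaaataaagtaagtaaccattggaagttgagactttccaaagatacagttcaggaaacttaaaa
SEMA3C start 2: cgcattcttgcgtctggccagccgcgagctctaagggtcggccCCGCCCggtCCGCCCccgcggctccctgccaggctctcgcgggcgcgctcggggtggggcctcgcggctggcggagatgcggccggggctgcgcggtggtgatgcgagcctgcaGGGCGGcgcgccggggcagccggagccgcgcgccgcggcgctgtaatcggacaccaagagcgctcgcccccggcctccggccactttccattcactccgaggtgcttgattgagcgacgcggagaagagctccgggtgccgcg
SEMA5A: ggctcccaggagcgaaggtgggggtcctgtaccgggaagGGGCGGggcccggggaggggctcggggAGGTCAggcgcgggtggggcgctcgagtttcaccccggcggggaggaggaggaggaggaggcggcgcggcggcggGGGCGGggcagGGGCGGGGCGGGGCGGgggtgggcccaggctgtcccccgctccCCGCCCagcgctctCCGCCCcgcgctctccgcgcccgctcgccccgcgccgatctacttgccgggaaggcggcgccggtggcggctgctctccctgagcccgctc

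The first SEMA3C window held neither motif and had a GC content of 36.0%. The second held 3 GC boxes at a GC content of 75.7%, and which start was used in these cells was not measured. The SEMA5A window held 1 AGGTCA and 7 GC boxes at a GC content of 81.0%, against a median of 58.7% over all windows. Of the 30 members, 26 matched the promoter table, with 47 windows. AGGTCA was present in 12.8% of member windows and in 13.8% of all 35116 windows, while the GC box was present in 63.8% and 45.0%. Of the 13 windows of members whose RNA was called in a comparison, 1 held AGGTCA, that of SEMA5A. These matches describe letters in a window and not bound sites.

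Before differentiation, SEMA3C, SEMA5A, SEMA6D, PLXNA2 and PLXNA4 were lower in V71 than in PLKO cells, and SEMA3A and PLXNC1 were higher. Of all genes, 1.54% were called lower and 0.615% higher in this comparison, 2.15% in either direction, against 7 of the 30 members or 23.3%. The differences ranged from -3.01 for SEMA3C to 1.75 for SEMA3A, and the members not called lay between -0.21 and 0.50. The median difference was 0.00 over members and 0.01 over all genes.

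After differentiation, only SEMA5A, PLXNA2 and PLXNC1 were called between the lines, each in the direction seen in NDF. These 3 members made up 10%, 2 lower and 1 higher, beside 3.06% of all genes, of which 1.26% were lower and 1.81% higher. The members not called lay between -0.44 and 0.53, and 2 of them, PLXNB1 and SEMA6D, passed the adjusted p but not the fold. No member was called between the lines in DF without being called in NDF. The median was -0.03 over members and 0.01 over all genes.

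**Figure D1:**
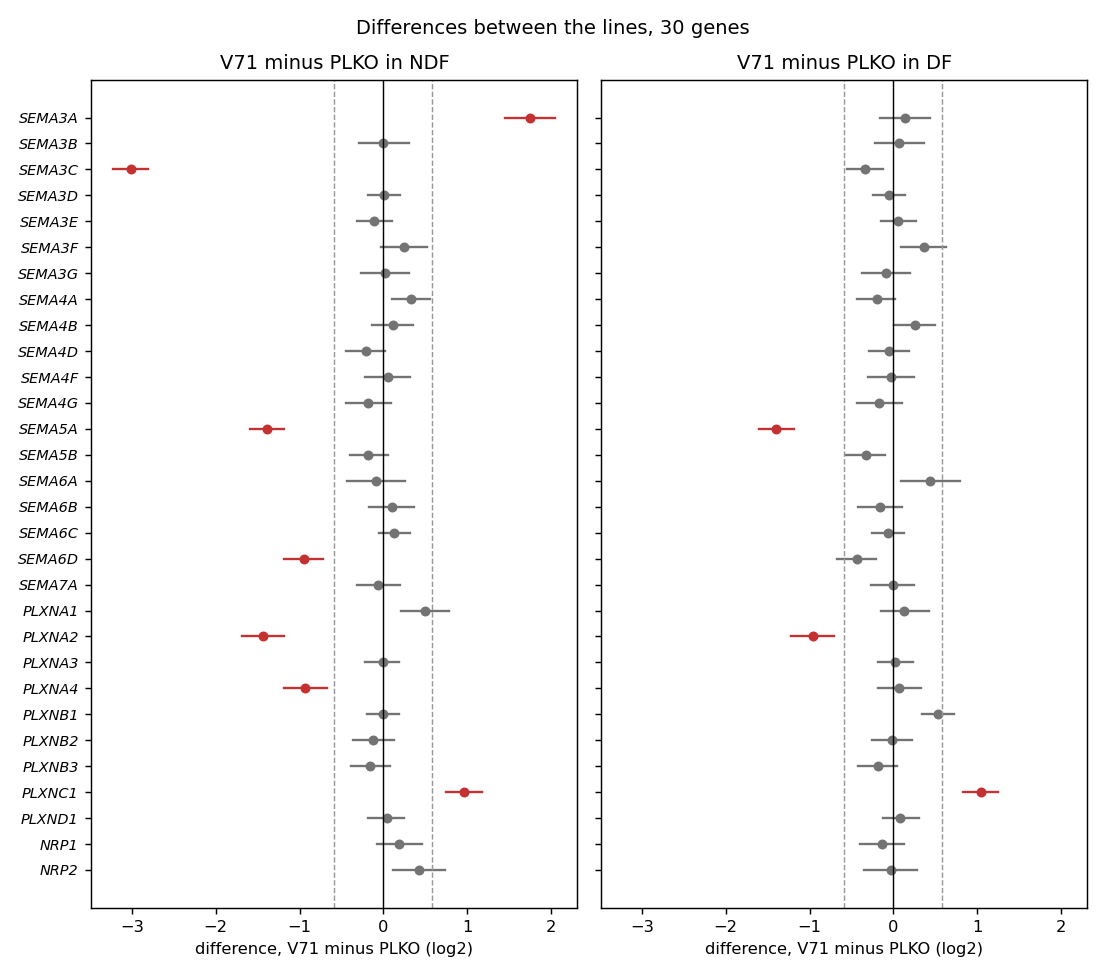
Log2 difference of V71 minus PLKO (horizontal axis) for the 30 members, listed by gene, in an NDF panel and a DF panel, with 95% intervals. SEMA3C stands at -3.01 in NDF and -0.34 in DF and SEMA3A at 1.75 and 0.14, whereas SEMA5A lies at -1.39 and -1.40.

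Upon differentiation of PLKO cells, SEMA3C, SEMA3A, SEMA6A, SEMA5A and PLXNA1 fell and SEMA6D rose. With no fold threshold 6 members were higher and 5 lower, since the 5 that passed the adjusted p under the fold (SEMA4F, PLXNB1, PLXNA3, SEMA6C and SEMA4A) were all higher. The share of all genes with no fold threshold was not computed. The 6 called members were 20.0% of the family, beside 7.04% of all genes, of which 4.16% fell and 2.88% rose. In V71 cells, SEMA3A, PLXNA1 and SEMA5A fell, and SEMA6D, PLXNA4 and PLXNB1 rose. That was again 6 members, beside 7.53% of all genes, of which 3.55% fell and 3.98% rose. SEMA3A, SEMA5A, PLXNA1 and SEMA6D were called in both lines in the same direction. The medians over members were -0.01 in PLKO and -0.08 in V71 cells, and over all genes 0.01 and 0.00.

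The test of the difference between the lines' responses, an interaction term, called SEMA3C, SEMA3A and PLXNA4. These 3 were 10% of members, beside 1.39% of all genes, of which 1.09% were higher and 0.305% lower. For SEMA6A and PLXNB1, called upon differentiation in 1 line but not among these 3, the test of the difference did not pass. Over the whole family, 10 members were called in at least 1 of the comparisons, 5 semaphorins and 5 plexins, and 20 in none, where 11.3% of all genes were called in at least 1. The line and differentiation comparisons share arrays pairwise and are not independent.

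**Figure D2:**
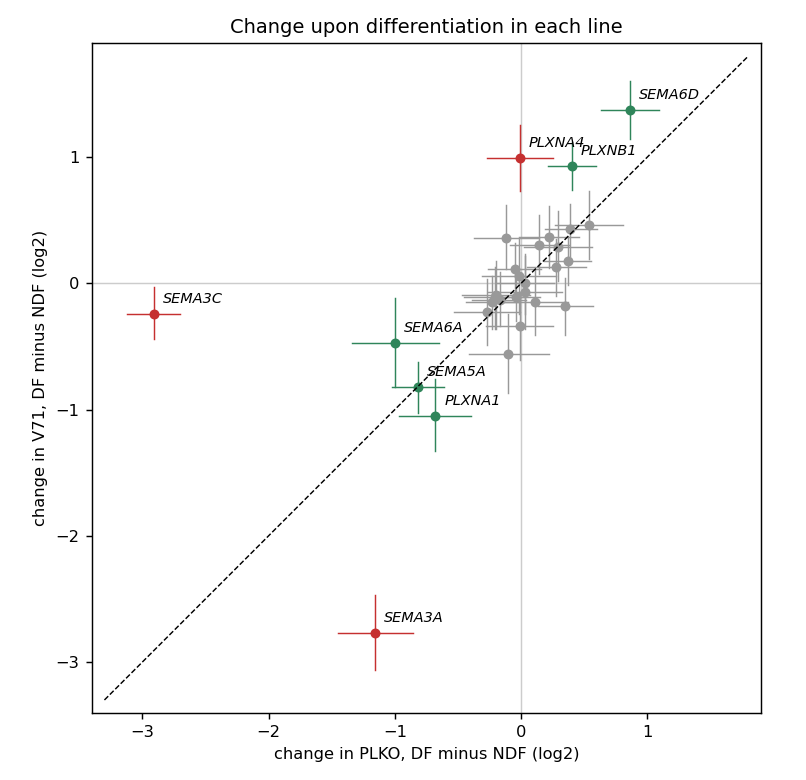
Log2 difference of DF minus NDF for the 30 members in PLKO cells (horizontal axis) and V71 cells (vertical axis), with 1 point for each gene. SEMA3C lies at -2.91 in PLKO and -0.24 in V71, SEMA3A at -1.16 and -2.77, and SEMA6D at 0.86 and 1.37.

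Markers of substrate-adherent, mesenchymal-like (S-type) neuroblastoma cells differed between the lines in the same groups as several members. The marker lists were chosen with earlier results of these data known, so their shares of called genes are not independent tests. Of 21 S-type markers, 8 were lower in V71 NDF than in PLKO NDF and none higher, beside 1.54% and 0.615% of all genes. Among the 8 were PDGFRA at a difference of -2.55, DCN at -2.14, TNC at -1.85, EGFR at -1.75 and VIM at -1.74. In DF 4 were lower in V71 and none higher, beside 1.26% and 1.81%. Upon differentiation of PLKO cells 5 fell and none rose, beside 4.16% and 2.88% of all genes. In V71 cells 1 fell and 1 rose, beside 3.55% and 3.98%. FN1, COL1A2 and SNAI2 were also lower in V71 DF than in V71 NDF, under the fold. Their differences were -0.58, -0.36 and -0.35 (limma adjusted p = 0.0129, 0.0226 and 0.0384). The interaction was higher for 4, VIM, SNAI2, NOTCH2 and DCN, beside 1.09%. In V71 cells DCN (means of 2.55 and 2.38) was below the lower quartile in both conditions. VIM (3.20 and 2.91) was near or below it, so falls of both there could hardly be measured. The log2 of the list's summed signal was 10.85 to 10.88 in PLKO NDF, 10.18 to 10.27 in V71 NDF, 10.67 to 10.70 in PLKO DF and 10.17 to 10.21 in V71 DF. Such a sum weighs bright genes most. PDGFRA, the brightest of them in PLKO cells, had means of 9.02 in PLKO NDF, 6.47 in V71 NDF, 9.07 in PLKO DF and 6.26 in V71 DF. The list's median line difference was -0.15 in NDF and 0.01 in DF, where that of all genes was 0.01 in both. Among the members, SEMA3C was highest in PLKO NDF, and SEMA5A and PLXNA2 were higher in PLKO in both conditions. SEMA6D and PLXNA4 were called lower in V71 in NDF only. In the other direction, SEMA3A was higher in V71 in NDF by 1.75, and PLXNC1 in NDF by 0.96 and in DF by 1.04. The other 13 markers were not called in NDF and lay between -0.26 for COL3A1 and 0.54 for SPARC, with THY1 at 0.35 and PRRX1 at 0.22. SPARC passed the adjusted p (0.0185) but not the fold. ANXA1 was below the lower quartile on all 8 arrays. Of the 10 noradrenergic markers, CHGA and CHGB, which encode granins of secretory vesicles, were higher in V71 NDF by 0.99 and 0.79, and none was lower. In DF CHGB was higher in V71 by 1.58 and DBH, the enzyme that makes noradrenaline, was lower at a difference of -0.74. Upon differentiation CHGB rose in both lines, DBH and GATA3 fell in V71 cells, and CHGA had an interaction of -0.87. The shares of all genes are those given above for each comparison, and 0.305% had a lower interaction. The part of the S-type and noradrenergic markers in the differences of the members was not tested, and in bulk RNA fewer cells of a type cannot be told apart from less RNA per cell. Of 6 Schwann cell markers none was called, with a mean of 3.59 to 3.80 and CDH19 below the lower quartile on all 8 arrays.

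SEMA3C, a secreted class 3 ligand that guides neural crest cells and cortical axons, had the largest difference of any member in 3 comparisons: V71 against PLKO in NDF, DF against NDF in PLKO cells, and the interaction. Its values were 8.66 and 8.79 in PLKO NDF, 5.65 and 5.77 in V71 NDF, 5.81 and 5.82 in PLKO DF, and 5.54 and 5.41 in V71 DF. The PLKO NDF arrays stood alone, about 3 units above the other 6. The line difference of SEMA3C was -3.01 in NDF (SE 0.09, 8.08-fold, adjusted p = 1.5e-06), and it fell by 2.91 in PLKO cells upon differentiation (SE 0.09, 7.51-fold, adjusted p = 2.98e-07). In V71 cells the difference upon differentiation was -0.24 (95% interval -0.44 to -0.03, adjusted p = 0.147), and between the lines in DF it was -0.34 (-0.55 to -0.13, adjusted p = 0.0743). The interaction was 2.67 (SE 0.13, adjusted p = 5.75e-05), which became an adjusted p of 0.0637 when variances were not moderated across genes.

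SEMA3A, the class 3 ligand that collapses sensory and sympathetic growth cones, differed between the lines in the opposite direction. It measured 3.81 and 4.24 in PLKO NDF, 5.85 and 5.69 in V71 NDF, 2.91 and 2.82 in PLKO DF, and 3.01 and 3 in V71 DF. All 4 DF arrays lay below their own lower quartile of all probe sets (3 to 3.06 over the 8 arrays), so both falls ended at the low end of the arrays and their sizes are uncertain. In NDF it was higher in V71 by 1.75 (SE 0.13, 3.36-fold, adjusted p = 9.21e-05, and 0.0658 with no moderation). Upon differentiation it fell by 1.16 in PLKO (SE 0.13, adjusted p = 0.000313) and by 2.77 in V71 cells (SE 0.13, adjusted p = 1.66e-06). The interaction was -1.61 (SE 0.19, adjusted p = 0.00339, and 0.232 with no moderation), and in DF the line difference was 0.14 (-0.16 to 0.44, adjusted p = 0.691). With both lines at this low level in DF, the interaction is for the most part the NDF line difference with its sign turned.

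The other 5 class 3 semaphorins, SEMA3B, SEMA3D, SEMA3E, SEMA3F and SEMA3G, were not called in any comparison. SEMA3D and SEMA3E were below the lower quartile on all 8 arrays, at 2.33 to 2.51 and 2.35 to 2.56. On chromosome 7 the order of members in RefSeq is SEMA3C, SEMA3E, SEMA3A, SEMA3D and PLXNA4, so the class 3 genes that moved in opposite directions between the lines are separated there by the low SEMA3E.

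SEMA5A, a transmembrane ligand with thrombospondin repeats that can attract or repel axons, was lower in V71 cells by nearly the same amount in both conditions. It measured 7.65 and 7.54 in PLKO NDF, 6.13 and 6.28 in V71 NDF, 6.79 and 6.77 in PLKO DF, and 5.42 and 5.35 in V71 DF. Both V71 arrays were below both PLKO arrays in each condition, and both DF arrays were below both NDF arrays in each line. The line difference was -1.39 in NDF (SE 0.09, 2.62-fold, adjusted p = 3.54e-05) and -1.40 in DF (SE 0.09, 2.63-fold, adjusted p = 3.2e-05). Upon differentiation SEMA5A fell by 0.82 in PLKO (SE 0.09, 1.76-fold, adjusted p = 0.00025) and by 0.82 in V71 cells (SE 0.09, 1.77-fold, adjusted p = 0.000268). The interaction was -0.01, with an interval of -0.29 to 0.28 (adjusted p = 0.995). SEMA5B, the other class 5 member, was not called and lay between 4.10 and 4.69.

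SEMA6D, a transmembrane class 6 ligand of A plexins, was the 1 semaphorin called higher upon differentiation, on the probe set used for each gene and with the fold threshold. SEMA4F, SEMA6C and SEMA4A were also higher but under that fold. It measured 6.46 and 6.30 in PLKO NDF, 5.50 and 5.37 in V71 NDF, 7.14 and 7.34 in PLKO DF, and 6.79 and 6.81 in V71 DF. Every DF array was above every NDF array, and V71 was below PLKO within each condition. SEMA6D rose by 0.86 in PLKO (SE 0.10, 1.81-fold, adjusted p = 0.000429) and by 1.37 in V71 cells (SE 0.10, 2.58-fold, adjusted p = 2.6e-05). The line difference was -0.95 in NDF (SE 0.10, adjusted p = 0.000921, and 0.0827 with no moderation) and -0.44 in DF (-0.67 to -0.21, adjusted p = 0.04), the last under the fold threshold. The interaction was 0.51 (0.18 to 0.83, adjusted p = 0.221).

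SEMA6A, which signals to PLXNA2 and PLXNA4 in several neuronal populations, was called in 1 comparison. It measured 5.52 and 5.38 in PLKO NDF, 5.14 and 5.58 in V71 NDF, 4.28 and 4.62 in PLKO DF, and 4.89 and 4.89 in V71 DF. The lines overlapped in NDF, and PLKO DF was lowest. SEMA6A fell by 1 in PLKO cells (SE 0.15, 2-fold, adjusted p = 0.00224, and 0.0859 with no moderation), while in V71 cells the difference was -0.47 (adjusted p = 0.0821) and between the lines in DF it was 0.44 (adjusted p = 0.17). The interaction was 0.53 (0.04 to 1.02, adjusted p = 0.492), so a difference between the lines' responses was not shown. SEMA6B and SEMA6C were not called, although SEMA6C was higher in PLKO DF than in PLKO NDF by 0.37 (adjusted p = 0.0174), under the fold threshold.

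**Figure D3:**
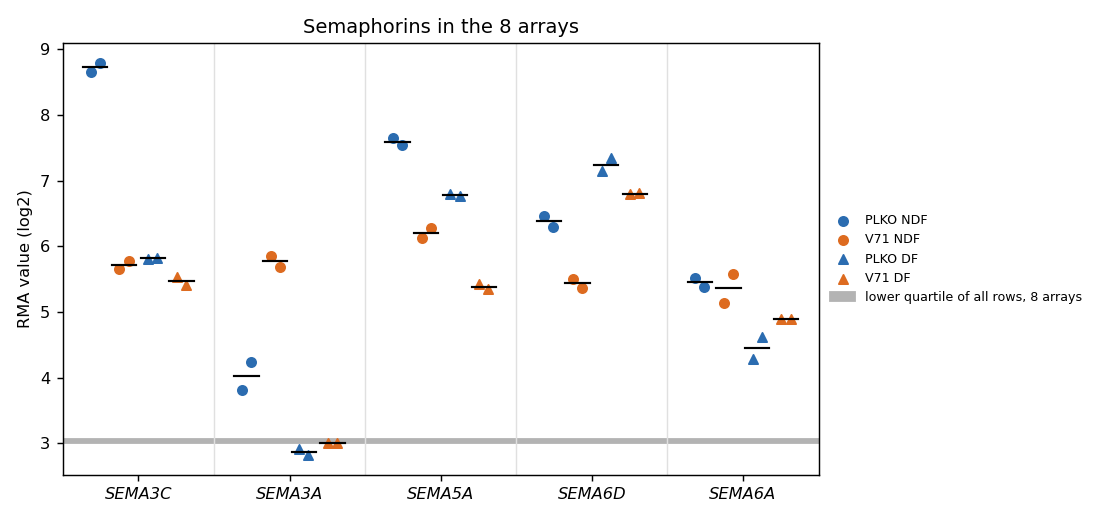
RMA values (log2) of the 5 called semaphorins on each of the 8 arrays, with the mean of each pair of arrays as a bar and the lower quartile of all probe sets as a grey line. The PLKO NDF arrays of SEMA3C stand at 8.66 and 8.79 above all others, and SEMA3A falls to the grey line in DF.

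The 5 class 4 semaphorins, transmembrane ligands that bind mainly B plexins, and SEMA7A, a membrane-anchored ligand of PLXNC1 and integrins, were not called in any comparison. SEMA4F was higher in DF than in NDF by 0.54 in PLKO (adjusted p = 0.017) and by 0.46 in V71 cells (adjusted p = 0.0339), both under the fold threshold. SEMA4A was higher in PLKO DF by 0.35 (adjusted p = 0.0478), and its interaction of -0.53 had an adjusted p of 0.169. SEMA4D had 2 probe sets that differed: the brighter one, used here, gave 0.14 upon differentiation of PLKO cells (adjusted p = 0.51), and the dimmer one gave 0.77 (adjusted p = 0.018). The SEMA4D response in PLKO cells is therefore uncertain.

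Among the receptors, the 4 A plexins, partners of neuropilins and of class 6 semaphorins, held 3 of the 5 called plexins. PLXNA2 measured 6.82 and 6.51 in PLKO NDF, 5.18 and 5.27 in V71 NDF, 6.49 and 6.61 in PLKO DF, and 5.63 and 5.55 in V71 DF. All 4 V71 arrays lay below all 4 PLKO arrays. PLXNA2, a receptor for class 3 and class 6 semaphorins, had a line difference of -1.44 in NDF (SE 0.11, 2.71-fold, adjusted p = 0.000118) and -0.96 in DF (SE 0.11, 1.95-fold, adjusted p = 0.00125). With no moderation these adjusted p-values were 0.06 and 0.0802. PLXNA2 was not called upon differentiation in either line, and the interaction was 0.48 (0.12 to 0.84, adjusted p = 0.332).

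PLXNA4, a receptor for SEMA3A and SEMA6A in sensory and sympathetic neurons, was low in 1 group. It measured 6.80 and 6.49 in PLKO NDF, 5.71 and 5.72 in V71 NDF, 6.67 and 6.60 in PLKO DF, and 6.80 and 6.61 in V71 DF. The V71 NDF arrays were below the other 6, which overlapped. The line difference was -0.93 in NDF (SE 0.11, 1.9-fold, adjusted p = 0.00221, and 0.124 with no moderation) and 0.07 in DF (-0.19 to 0.33, adjusted p = 0.836). PLXNA4 rose by 0.99 in V71 cells (SE 0.11, 1.99-fold, adjusted p = 0.000395), and in PLKO cells the difference was -0.01 (-0.27 to 0.25). The interaction was 1 (SE 0.16, adjusted p = 0.022) and was no longer called in 6 of the 8 fits that left out 1 array, among them that without PLKO NDF replicate 2, where it was 0.84 (adjusted p = 0.0835), nor with no moderation (adjusted p = 0.309).

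PLXNA1, a receptor that pairs with NRP1 for SEMA3A, fell in both lines upon differentiation. It measured 6.76 and 6.47 in PLKO NDF, 6.96 and 7.26 in V71 NDF, 5.96 and 5.90 in PLKO DF, and 6.09 and 6.03 in V71 DF. Every DF array was below every NDF array. PLXNA1 fell by 1.05 in V71 (SE 0.13, 2.07-fold, adjusted p = 0.0005) and fell by 0.68 in PLKO cells (SE 0.13, 1.6-fold, adjusted p = 0.00617). The PLKO difference was -0.54 without PLKO NDF replicate 2 (adjusted p = 0.0636), and its adjusted p was 0.103 with no moderation. The interaction was -0.37 (-0.77 to 0.04, adjusted p = 0.602), and the line difference in NDF, 0.50, had an adjusted p of 0.0884.

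PLXNA3, another A plexin that acts with NRP2, was higher in DF by 0.39 in PLKO (adjusted p = 0.0203) and 0.43 in V71 cells (adjusted p = 0.0129), under the fold threshold in both. PLXNA1 and PLXNA3 had differences of opposite sign upon differentiation, of which only that of PLXNA1 was called.

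Of the 3 B plexins, receptors for class 4 semaphorins, PLXNB1 was called in 1 comparison and PLXNB2 and PLXNB3 in none. PLXNB1, the receptor for SEMA4D, measured 5.69 and 5.64 in PLKO NDF, 5.71 and 5.62 in V71 NDF, 6.05 and 6.08 in PLKO DF, and 6.66 and 6.53 in V71 DF. The lines overlapped in NDF, and V71 DF was above PLKO DF. PLXNB1 rose by 0.93 in V71 cells (SE 0.09, 1.91-fold, adjusted p = 9.49e-05), while the differences of 0.40 in PLKO cells (adjusted p = 0.0138) and of 0.53 between the lines in DF (adjusted p = 0.00695) passed the test but not the fold. The interaction was 0.53 (0.26 to 0.81, adjusted p = 0.104).

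PLXNC1, the receptor for SEMA7A, was higher in V71 cells in both conditions. It measured 4.54 and 4.70 in PLKO NDF, 5.59 and 5.57 in V71 NDF, 4.43 and 4.35 in PLKO DF, and 5.36 and 5.50 in V71 DF. All 4 V71 arrays lay above all 4 PLKO arrays. The difference was 0.96 in NDF (SE 0.09, 1.94-fold, adjusted p = 0.000462, and 0.0553 with no moderation) and 1.04 in DF (SE 0.09, 2.06-fold, adjusted p = 0.000244). The interaction was 0.08 (-0.21 to 0.38, adjusted p = 0.923). PLXND1, a receptor for SEMA3E, was not called.

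**Figure D4:**
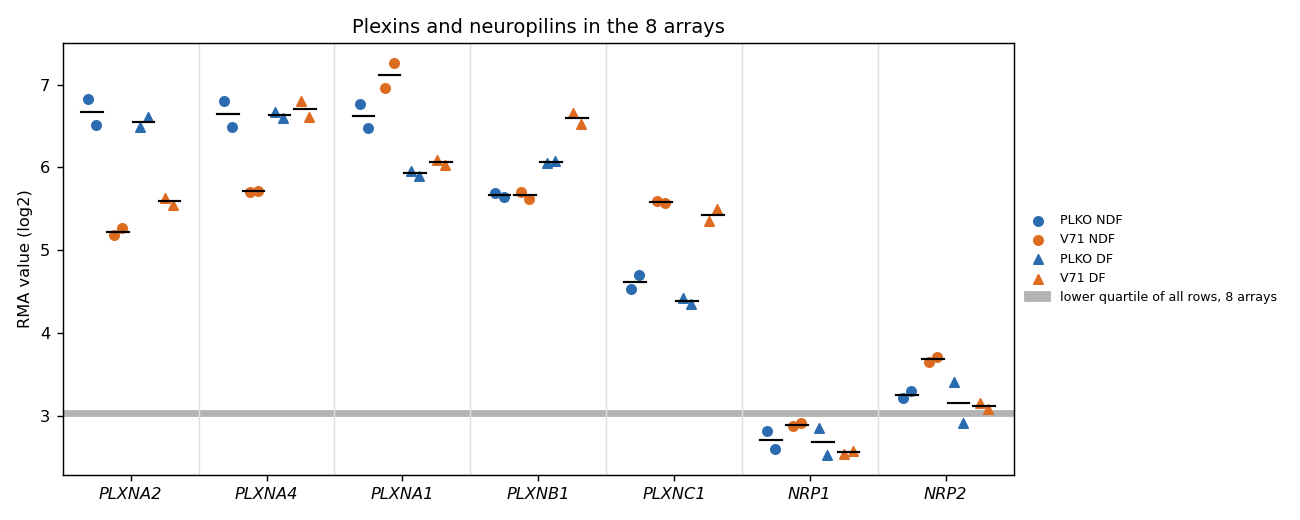
RMA values (log2) of the 5 called plexins and of NRP1 and NRP2, which were not called, on each of the 8 arrays. They are drawn as for the semaphorins, with circles for NDF, triangles for DF and the bar for the mean of 2 arrays. PLXNA2 and PLXNC1 separate the lines in both conditions, PLXNA4 is lowest in V71 NDF at 5.71 and 5.72, and PLXNA1 falls in DF.

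The neuropilins, the binding subunits for class 3 semaphorins, were at the low end of the arrays. NRP1 lay below the lower quartile on all 8 arrays, at 2.53 to 2.92, so that changes in it could hardly be measured. NRP2, on the brighter of its 2 probe sets, lay between 2.92 and 3.71. Its difference upon differentiation of V71 cells was -0.56 (adjusted p = 0.0273), under the fold threshold, and the dimmer probe set gave -0.25 (adjusted p = 0.157). In NDF the line difference of NRP2 was 0.43 (adjusted p = 0.205), and its interaction was -0.46 (adjusted p = 0.515). Low signal on a probe set is not a measure of absent RNA.

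Of 44 genes fixed as co-receptors, adhesion partners and signalling genes of the pathway, 41 were analysed. This list too was chosen with earlier results of these data known. In NDF 3 of the 41 were lower in V71 and none higher, beside 1.54% and 0.615% of all genes, and in DF 2 were lower and 1 higher, beside 1.26% and 1.81%. Upon differentiation 2 rose and none fell in PLKO cells, beside 2.88% and 4.16% of all genes, and 2 rose and 1 fell in V71 cells, beside 3.98% and 3.55%. The interaction called 1, which was higher, beside 1.09%. The list's median difference was 0.00 in NDF, 0.07 in DF, 0.10 in PLKO and 0.10 in V71 cells, where the medians of all genes were 0.01, 0.01, 0.01 and 0.00.

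DPYSL3, a collapsin response mediator of the CRMP family that relays semaphorin signals to the cytoskeleton, had the largest changes of the 5 called pathway genes upon differentiation. It measured 6.58 and 6.66 in PLKO NDF, 5.01 and 5.16 in V71 NDF, 9.03 and 9.07 in PLKO DF, and 9.41 and 9.54 in V71 DF. The V71 arrays were lowest before and highest after differentiation. DPYSL3 rose by 2.43 in PLKO (adjusted p = 6.32e-07) and by 4.39 in V71 cells (adjusted p = 3.16e-08), had a line difference of -1.53 in NDF (SE 0.09, adjusted p = 2.52e-05) and an interaction of 1.96 (SE 0.13, adjusted p = 0.000172, and 0.0747 with no moderation). The other CRMP genes analysed, CRMP1, DPYSL2, DPYSL4 and DPYSL5, were not called in any comparison.

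L1CAM, an adhesion molecule that binds NRP1 and takes part in the response to SEMA3A, measured 7.26 and 7.07 in PLKO NDF, 7.46 and 7.66 in V71 NDF, 8.17 and 8.10 in PLKO DF, and 8.95 and 8.64 in V71 DF. Every DF array was above every NDF array, and V71 was above PLKO in each condition. L1CAM rose by 0.97 in PLKO (adjusted p = 0.000672) and by 1.23 in V71 cells (adjusted p = 0.000163). The line difference in DF, 0.66 (adjusted p = 0.0152), was no longer called without PLKO DF replicate 1 (0.70, adjusted p = 0.062), PLKO DF replicate 2 (0.62, adjusted p = 0.0748) or V71 DF replicate 1 (0.51, adjusted p = 0.115), nor with no moderation (adjusted p = 0.182).

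NRCAM, an L1-family partner of NRP2, measured 9.16 and 9 in PLKO NDF, 8.45 and 8.47 in V71 NDF, 8.45 and 8.59 in PLKO DF, and 7.98 and 7.86 in V71 DF. Within each condition both V71 arrays were below both PLKO arrays, with line differences of -0.62 in NDF (adjusted p = 0.00748) and -0.60 in DF (adjusted p = 0.00626). NRCAM lost the NDF call without PLKO NDF replicate 2 (-0.54, adjusted p = 0.0993) or V71 NDF replicate 2 (-0.61, adjusted p = 0.0603), and the DF call without PLKO DF replicate 2 (-0.53) or V71 DF replicate 2 (-0.54), where it fell under the fold. With no moderation neither was called.

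MET, the receptor tyrosine kinase that associates with B plexins, measured 4.49 and 4.59 in PLKO NDF, 3.91 and 3.63 in V71 NDF, 4.5 and 4.61 in PLKO DF, and 3.82 and 3.88 in V71 DF. All V71 arrays were below all PLKO arrays, with differences of -0.77 in NDF (adjusted p = 0.00417) and -0.71 in DF (adjusted p = 0.00475). MET was not called in NDF without PLKO NDF replicate 3 (-0.72, adjusted p = 0.0602), nor in either condition with no moderation. PTK7, a pseudokinase that interacts with A plexins, measured 7.16 and 7.24 in V71 NDF and 6.60 and 6.62 in V71 DF. PTK7 fell by 0.60 in V71 cells (adjusted p = 0.00111), and the difference was -0.56 without V71 NDF replicate 3, under the fold. In PLKO cells its difference upon differentiation was -0.35 (adjusted p = 0.0225), under the fold, and its interaction was -0.25 (adjusted p = 0.569).

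**Figure D5:**
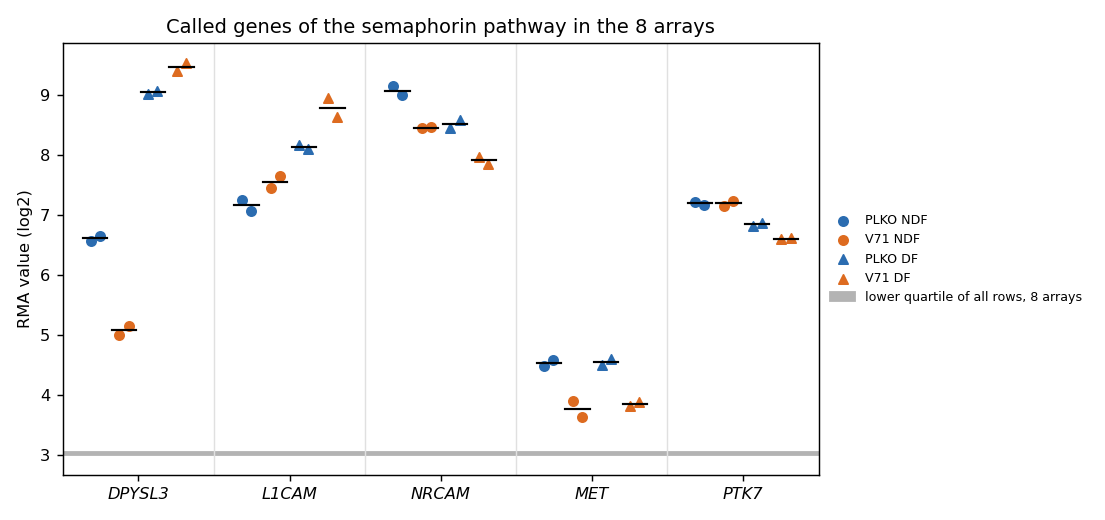
RMA values (log2) of the 5 called genes among the 41 pathway genes analysed, on each of the 8 arrays, with bars for the mean of 2 arrays and the lower quartile of all probe sets as a grey line. DPYSL3 spans 5.01 to 9.54, lowest in V71 NDF and highest in V71 DF.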

How the data were processed

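RNA of 2 stable SHSY5Y lines in 2 growth conditions was hybridised to Affymetrix whole-transcript arrays, 2 per group. The authors deposited log2 values made by RMA (background correction, quantile normalization and probe summary) in Partek 6.5, and no further normalization was applied here. The genome build of the array annotation is not given in the sources used here. Of 28869 probe sets, 19310 carried 1 gene symbol, 1752 several and 7807 none. All were fitted, and for each of 18377 genes the single-symbol probe set of highest mean was used (685 genes had more than 1). The deposited detection calls were not used.

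One 4-group linear model with empirical Bayes moderation was fitted with limma 3.58.1 in R 4.3.3 and first tested on simulated data. It had 4 residual and 5.43 prior degrees of freedom. The lines were compared within each growth condition (V71 minus PLKO) and the conditions within each line (DF minus NDF). The difference of the latter was the interaction. Benjamini-Hochberg adjustment ran over all probe sets (threshold 0.05, fold of at least 1.5). The methods' analysis of variance, without moderation, was an alternative, as were other priors, normalizations, filters, thresholds, a replicate block and leaving out each array.

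All members could be named. Array values are given for called members, the value alone for members within 0.2 (log2) of the fold threshold, and at most 5 called genes are named from each list. The members and gene lists were chosen with earlier results of these data known. SEMA4C and, from the pathway lists, GIPC1, ITGA1 and PAK1 were not analysed here. Groups follow the sample titles. Precision is limited by the number of arrays. Deviations of same-numbered arrays of the lines from their group means correlated at -0.18 in NDF and 0.19 in DF, so the numbers were not taken to pair the arrays.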

Additional observations from a re-analysis of the deposited data

Results flagged for a closer look

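The response to differentiation differed between the lines for 3 members, tested by the limma interaction term (V71 response minus PLKO response, log2). SEMA3C differed by 2.67 (adjusted p = 5.75e-05), with a called fall in PLKO cells and none called in V71 cells. SEMA3A differed by -1.61 (adjusted p = 0.00339), with a called fall in both lines, the larger in V71 cells. PLXNA4 differed by 1 (adjusted p = 0.022), with a called rise in V71 cells and none called in PLKO cells. SEMA3A ended below the lower quartile of all probe sets on all 4 DF arrays, so the sizes of its falls are uncertain and its interaction is for the most part the line difference in NDF. The line differences of SEMA3C and PLXNA4 were -3.01 and -0.93 in NDF and -0.34 and 0.07 in DF. Their interactions are thus also for the most part the NDF line difference with its sign turned. In their response to differentiation, 4 of 21 S-type markers and 1 of 10 noradrenergic markers also differed between the lines, beside 1.39% of all genes. Both marker lists were chosen with earlier results of these data known. Of the 4 S-type markers, DCN and VIM were near or below the lower quartile in V71 cells, which limits a fall there. The part of the S-type and noradrenergic markers in the differences of the members was not tested.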

How the results depend on the processing

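Of 25 member calls, 9 kept their call under every setting, and none of 492 alternative values reversed direction, while 30 were not called. With no moderation of the variance, as in the methods' analysis of variance, 2 members (SEMA3C and SEMA5A) were called in NDF in place of 7. The interaction then called 0 in place of 3, where 9 members had an unadjusted p under 0.05 in the moderated limma fit. With a fold of at least 2 the counts were 4 in NDF, 2 upon differentiation of PLKO cells and 3 in V71 cells. With no fold threshold they were 5 in DF and 11 in PLKO cells (6 higher and 5 lower, in place of 1 and 5). Shares of all genes were computed only for the reported calls, so these counts and that at an unadjusted p have no such share beside them. Leaving out each array in turn gave 7 in NDF in every case, 3 to 4 in DF, 5 to 7 in PLKO cells, 6 to 7 in V71 cells and 2 to 3 for the interaction. The calls lost were those of PLXNA1 in PLKO cells and of the PLXNA4 interaction (0.84 to 1.15, adjusted p 0.0228 to 0.0943).

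The arrays share only replicate numbers, and with the replicate number as a block 7 members were called in NDF, 3 in DF and 3 by the interaction. A block with the NDF numbers crossed, added after seeing the data, also gave 7. The growth conditions share 1 number, so no paired fit was made between them. Precision is limited by 2 arrays a group, and members near the lower quartile of the arrays, such as NRP1, SEMA3D and SEMA3E, allow no statement on small changes.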
